A study of Mus musculus with 8 samples.

Results

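Collagen is folded and modified inside the endoplasmic reticulum before it leaves the cell, and in basement membranes it is tied to laminin by linking proteins. The genes described here cover both steps. They are Serpinh1, P4ha1, Plod1 and Plod3, which act on new collagen chains, Nid1, Nid2 and Hspg2, which belong to basement membranes, and the matrix or matrix-associated genes Sparc, Ecm1 and Mxra8. All 10 were found by symbol among the 26667 genes of the count table. They were chosen by function with the result of the genotype comparison already known, so their differences are given as descriptions and no p-value is printed for them.

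As background, prolyl hydroxylases stabilise the collagen triple helix, lysyl hydroxylases prepare chains for crosslinks and sugar addition, and the chaperone encoded by Serpinh1 binds the folded helix until it exits toward the Golgi. Nidogens bridge the laminin and type IV collagen networks, and perlecan, the product of Hspg2, is a large proteoglycan of the same sheets. Macrophages mostly degrade and take up matrix, while fibroblasts, endothelial cells and other stromal cells make most of it.

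Poly(A) RNA came from macrophages of C57BL/6 mice, grown from whole marrow for 8 to 10 days in 30 ng/ml of the growth factor M-CSF with 10% serum and given no further treatment that the labels name. One group of 4 libraries was wild type (WT) and the other group of 4 was labelled Dnmt3a KO. Dnmt3a encodes an enzyme that adds methyl groups to CpG sites. The sources used here do not give the allele, the deleting strain or the number of mice, and p-values therefore reflect only library-to-library spread, which may be technical. The comparison describes how the transcripts of these macrophages differed between the labelled genotypes.

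Library totals ran from 12614006 to 28502631 counts. Dnmt3a averaged 161 ± 10.0 CPM (reads of a gene per 1000000 reads of its library, after TMM scaling; SD, n = 4) in WT against 34.4 ± 3.70 CPM (SD, n = 4) in KO, and the exons under the remaining reads are unknown. The macrophage markers Csf1r (2109 and 2063 CPM in WT and KO) and Lyz2 (5619 and 7698 CPM) were abundant in both genotypes. Of the 18 macrophage markers listed, all were tested and 0 passed the edgeR test described below. Their median log2 fold change of KO over WT was 0.13, with values from -0.74 for Cd163 to 0.62 for Fcgr1. An unadjusted edgeR p under 0.05 was found for 4, and DESeq2 called 1. The share of all tested genes with such an unadjusted p is not given, so nothing is read from this count or those below. Besides Lyz2 the most abundant macrophage markers were Ctsd and Lgals3, at 0.18 and 0.22 on the log2 scale. WT replicate 1 stood apart from the other 7 libraries on the first principal component of log2 CPM, which held 46.2% of the variance. WT libraries are numbered 1 to 4 and KO libraries 9 to 12, so library order and genotype cannot be told apart.

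Over all genes, 201 of 12507 tested genes passed the edgeR quasi-likelihood test at a Benjamini-Hochberg adjusted p under 0.05, which is 1.61%. Of the 10 genes, 7 had enough counts to be tested and 3 of these passed. All 3 also had a log2 fold change of at least 1 in size, and 0.943% of all tested genes both passed and reached that size. The genotypes did not overlap in 4 of the 7, these 3 and Ecm1, beside 9.41% of all tested genes. Serpinh1 and Mxra8 were higher in KO, as were 1.22% of tested genes, and Nid2 was lower, as were 0.392%. Nothing is read from these shares, because the genes were picked with this comparison in view. The prolyl and lysyl hydroxylase genes P4ha1, Plod1 and Plod3 and the matrix gene Ecm1 did not pass. Nid1, Hspg2 and Sparc were too low to test.

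**Figure D1:**
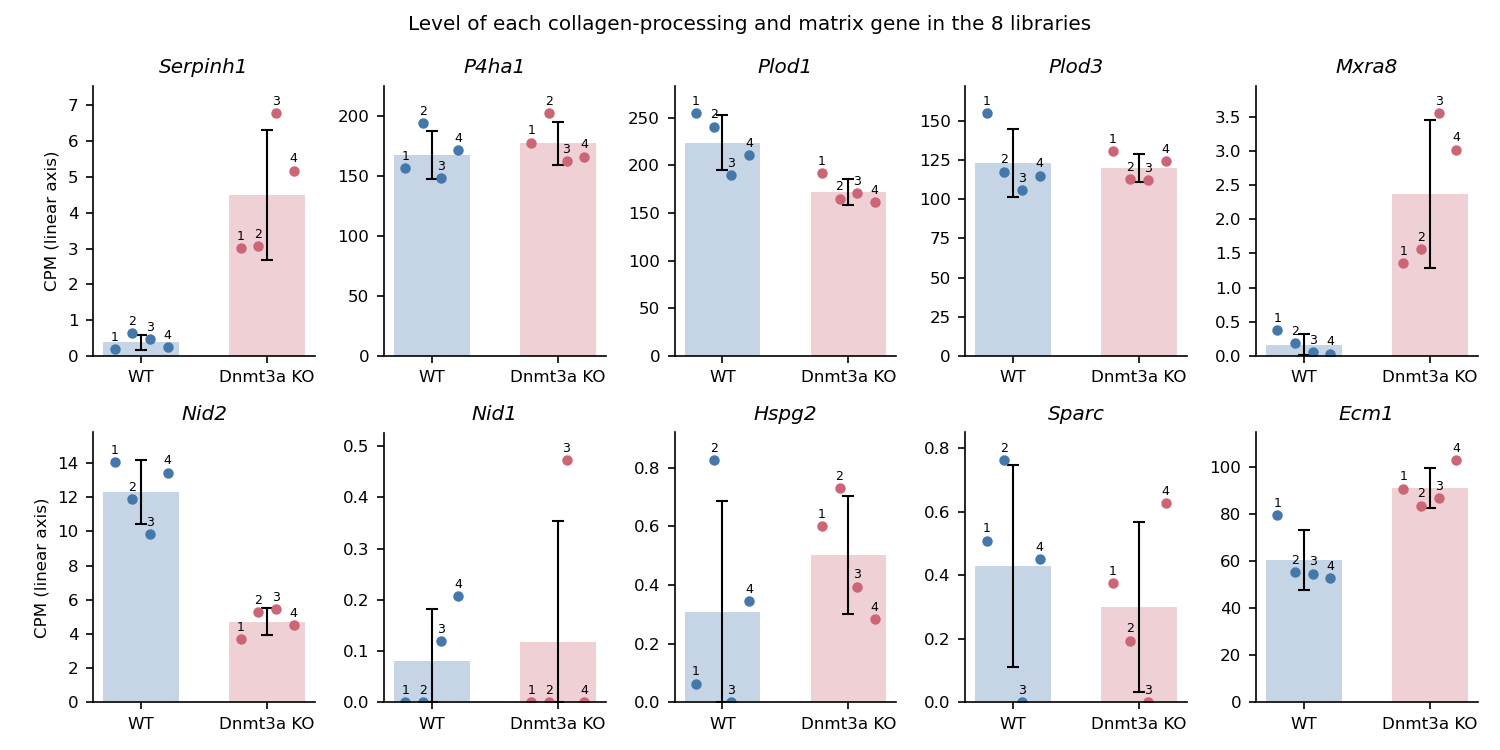
Level of each gene in CPM on linear axes that start at 0, for WT (blue) and Dnmt3a KO (red). Points are libraries numbered by replicate, bars are means and whiskers are 1 SD (n = 4). Serpinh1 and Mxra8 lie higher in every KO library than in any WT library, Nid2 lies lower in every KO library, and P4ha1, Plod1 and Plod3 overlap.

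Serpinh1, the collagen chaperone gene, was close to the detection limit in WT and clearly present in KO. In RNA from whole cultures, more cells of a type and more RNA per cell cannot be told apart. WT replicates 1 to 4 held 3, 10, 8 and 7 counts of it, and KO replicates 1 to 4 held 40, 63, 86 and 91. Scaled, these are 0.191, 0.636, 0.477 and 0.242 CPM for WT, against 3.01, 3.07, 6.78 and 5.18 CPM for KO. Every KO library thus lay above every WT library, as was the case for 5.13% of all tested genes. The mean was 0.386 ± 0.208 CPM in WT against 4.51 ± 1.82 CPM in KO (SD, n = 4 each). The fitted difference was 11.8-fold, or 3.57 ± 0.43 on the log2 scale (SE; 95% interval from 2.62 to 4.51).

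The KO libraries were not alike in this gene. The exact Poisson 95% intervals, which cover counting error only, ran from 2.15 to 4.09 CPM in KO replicate 1 and from 2.36 to 3.92 CPM in replicate 2. They ran from 5.42 to 8.37 CPM in replicate 3 and from 4.17 to 6.36 CPM in replicate 4. The intervals of replicates 3 and 4 lay above those of replicates 1 and 2. Over all genes, too, every pair of KO libraries differed by more than counting error. Per kb of transcript, Serpinh1 averaged 0.170 CPM in WT and 1.98 CPM in KO, while P4ha1, one of the enzymes it works beside, averaged 41.5 and 43.8 CPM.

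Mxra8 encodes a membrane protein with immunoglobulin-like domains that serves as an entry receptor for several arthritogenic alphaviruses. WT replicates 1 to 4 held 6, 3, 1 and 1 counts, and KO replicates 1 to 4 held 18, 32, 45 and 53. Scaled, they come to 0.381, 0.191, 0.0596 and 0.0346 CPM for WT, against 1.35, 1.56, 3.55 and 3.02 CPM for KO. The groups did not overlap, and as for Serpinh1 the higher KO values were those of replicates 3 and 4. Their Poisson intervals, from 2.59 to 4.75 and from 2.26 to 3.95 CPM, lay above those of replicates 1 and 2, from 0.802 to 2.14 and from 1.07 to 2.20 CPM.

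Mxra8 averaged 0.167 ± 0.159 CPM in WT against 2.37 ± 1.08 CPM in KO (SD, n = 4 each). The fitted log2 difference was 3.93 ± 0.60 (SE; 95% interval from 2.61 to 5.24). The size of this change rests on 11 WT counts in all, against 148 in KO. The gene exceeded the 0.611 CPM that the count filter asks for in 0 WT and 4 KO libraries, and Serpinh1 in 1 WT and 4 KO libraries. Both were tested because of the group in which they are high, so that they passed is no separate evidence. An antisense gene, Mxra8os, shares 211 of the 2918 exonic bases of Mxra8, and since the library kit does not mark strand its reads cannot be told apart from those of Mxra8 there.

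The start sites of Serpinh1 and Mxra8 are shown with those of P4ha1, which held the most CpG sites among the 9 of the 10 genes with a window, and Ecm1, which held the fewest of these. CpG is the site that Dnmt3a methylates. Methylation was not measured in these files, so the letters show only where such sites could lie. Each window runs from 250 bases before to 50 bases after the RefSeq start in GRCm38.p6, the assembly also called mm10, and is written 5′ to 3′ on the strand of the gene with every CpG in capitals.
Serpinh1, chr7:99353190-99353489, minus strand: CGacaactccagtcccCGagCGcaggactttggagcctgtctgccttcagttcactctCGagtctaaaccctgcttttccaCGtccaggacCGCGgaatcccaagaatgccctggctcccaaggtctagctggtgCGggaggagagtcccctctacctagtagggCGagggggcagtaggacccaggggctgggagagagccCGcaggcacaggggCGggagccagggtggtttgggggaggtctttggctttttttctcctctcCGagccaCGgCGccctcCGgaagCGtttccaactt
Mxra8, chr4:155839430-155839729, plus strand: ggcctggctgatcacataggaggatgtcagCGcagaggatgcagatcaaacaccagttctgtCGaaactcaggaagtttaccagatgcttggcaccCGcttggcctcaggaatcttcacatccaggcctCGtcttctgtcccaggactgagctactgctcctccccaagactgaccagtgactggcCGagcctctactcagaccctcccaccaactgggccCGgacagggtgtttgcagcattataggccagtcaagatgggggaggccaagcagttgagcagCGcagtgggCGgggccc
P4ha1, chr10:59323046-59323345, plus strand: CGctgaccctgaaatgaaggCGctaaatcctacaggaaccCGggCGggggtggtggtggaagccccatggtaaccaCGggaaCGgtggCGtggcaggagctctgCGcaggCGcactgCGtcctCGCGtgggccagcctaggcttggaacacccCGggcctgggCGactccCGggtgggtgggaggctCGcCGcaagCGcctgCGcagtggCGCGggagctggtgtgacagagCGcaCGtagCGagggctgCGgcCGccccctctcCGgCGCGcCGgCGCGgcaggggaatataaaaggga
Ecm1, chr3:95739520-95739819, minus strand: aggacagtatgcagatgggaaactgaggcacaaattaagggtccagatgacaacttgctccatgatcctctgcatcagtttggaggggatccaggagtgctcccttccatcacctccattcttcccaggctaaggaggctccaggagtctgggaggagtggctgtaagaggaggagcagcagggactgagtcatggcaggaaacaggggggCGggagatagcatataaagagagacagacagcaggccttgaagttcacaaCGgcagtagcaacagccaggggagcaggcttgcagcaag

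These windows differed widely in CpG content. Serpinh1 held 16 CpG sites, a number reached by 33.0% of the 32851 RefSeq windows of this length, and Mxra8 held 8, reached by 48.6%. The median over all windows was 7. P4ha1 held 32, reached by 9.5%, and Ecm1 held 2, with 23.3% of windows holding as few. The other genes with a window were Hspg2 with 27, Plod1 with 25, Nid1 with 20, Plod3 with 19 and Sparc with 4. Nid2 was not among the windows used here. The CpG counts of the 2 genes that were higher in KO lie within the range of those that did not pass or were not tested. That range, from 2 to 32, takes in most windows, so nothing is read from this.

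**Figure D2:**
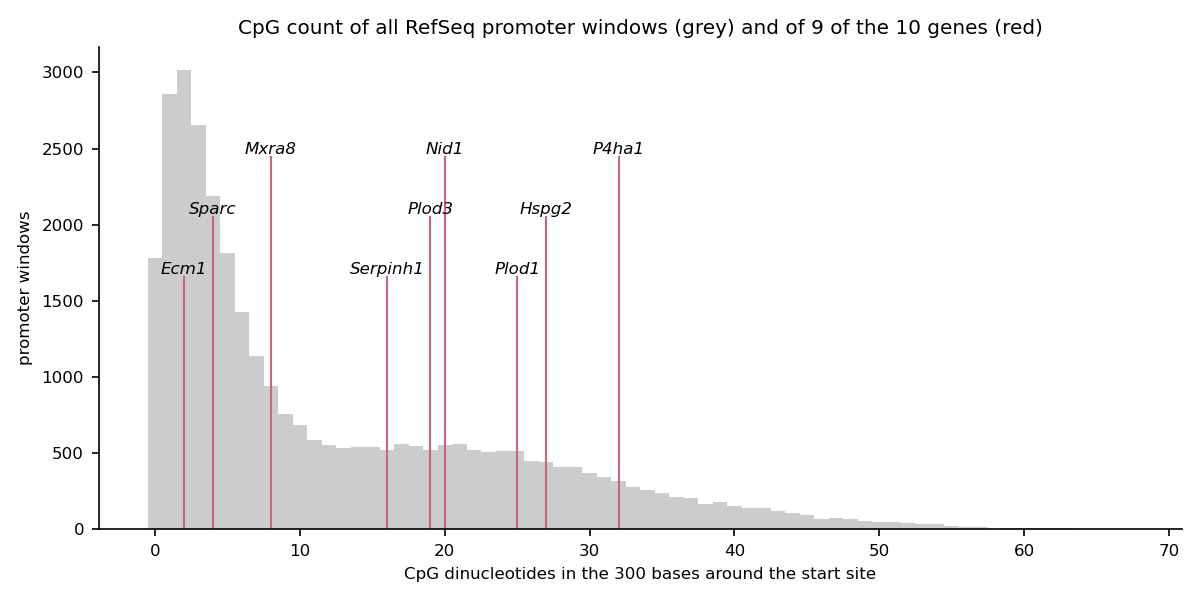
CpG sites per 300-base window around the start site, for all 32851 RefSeq windows (grey bars, number of windows) and for 9 of the 10 genes (red lines, whose height has no meaning). Serpinh1 at 16 and Mxra8 at 8 lie between Ecm1 at 2 and P4ha1 at 32.

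Motifs were searched on both strands. The core of the heat shock element, GAANNTTC, is its own reverse complement and was found in 7.9% of all windows. It was in the Mxra8 window, starting 141 bases before the start site, and in the Plod1 window, and it was not among the letters of the Serpinh1 window. The hypoxia element core ACGTG, in 19.6% of all windows, was in those of Serpinh1, Plod3 and P4ha1. The GC box GGGCGG, in 35.7%, was in 7 of the 9 windows, all but those of Plod3 and Sparc. TATAAA, in 13.6% of windows, was in those of Ecm1, P4ha1 and Plod1, and starts 27 bases before the start site in Ecm1.

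The hydroxylase genes were expressed strongly in both genotypes. P4ha1 encodes a catalytic subunit of collagen prolyl hydroxylase. Its levels were 157, 194, 148 and 172 CPM for WT replicates 1 to 4, against 178, 202, 163 and 166 CPM for KO replicates 1 to 4. The groups overlapped, with a log2 fold change of 0.08 ± 0.11 (SE) and a 95% interval from -0.17 to 0.33. P4hb, the disulfide isomerase that forms the other subunit of that enzyme, averaged 570 ± 43.5 CPM against 549 ± 44.0 CPM (SD, n = 4 each; edgeR adjusted p 0.858).

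Plod1, a lysyl hydroxylase gene, stood at 254, 240, 190 and 210 CPM for WT, against 191, 165, 171 and 161 CPM for KO. WT replicate 3 fell just below KO replicate 1, so the groups overlapped by this pair of libraries. The log2 fold change was -0.38 ± 0.11 (SE), with a 95% interval from -0.63 to -0.13 before any adjustment over genes, and the gene did not pass over all genes. It was called with DESeq2, which called 4.41% of all tested genes, and under no other setting tried.

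Plod3 encodes a lysyl hydroxylase that can also attach sugars to hydroxylysine. Its levels were 155, 118, 106 and 115 CPM for WT, against 131, 113, 112 and 124 CPM for KO, with no separation of the groups. The log2 fold change was -0.04 ± 0.13 (SE), with a 95% interval from -0.31 to 0.24, and it turned to 0.09 without WT replicate 1, the highest library. The gene shares 529 of its 4519 exonic bases with Znhit1 on the other strand, so reads in that stretch cannot be assigned with certainty.

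Within the lysyl hydroxylase family the balance between the 2 abundant genes differed between genotypes without overlap, which was not tested. How often other pairs of genes separate in this way was not examined, so nothing is read from it. Plod1 made up 61.3%, 65.3%, 62.6% and 63.2% of the counts of Plod1, Plod2 and Plod3 in the WT libraries. Its share was 58.2%, 57.3%, 59.1% and 55.5% in the KO libraries, below every WT value. The share of Plod3 was 34.7% ± 2.19 in WT and 40.1% ± 1.75 in KO (SD, n = 4 each). Plod2, added here to complete the family after its values were seen, held 2.27% and 2.36%.

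In the wider machinery of collagen folding in the endoplasmic reticulum Serpinh1 was the only call. The list held 24 genes, of which 19 were tested. By edgeR 1 of these was called and 2 had an unadjusted p under 0.05, while DESeq2 called 2 and limma-voom 1. The 15 tested genes other than those described here gave 0 calls by edgeR. Their log2 fold changes ran from -0.29 to 0.50. The median of the whole list was -0.04, beside -0.02 over all tested genes. Glt25d1 (Colgalt1), which puts galactose on collagen hydroxylysine, averaged 200 ± 20.1 CPM in WT against 187 ± 8.15 CPM in KO (SD, n = 4 each; edgeR adjusted p 0.724).

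Genes that trim and crosslink collagen outside the cell were mostly low. Of 14 listed, 5 were tested, and edgeR, DESeq2 and limma-voom each called 0, with 2 at an unadjusted edgeR p under 0.05. Tgm2, a transglutaminase gene, was at 563 ± 115 and 543 ± 105 CPM. The lysyl oxidase gene Lox averaged 2.09 and 3.81 CPM and Loxl3 2.80 and 4.18 CPM in WT and KO (edgeR adjusted p 0.263 and 0.284). Of 23 collagen chains outside the basement membrane list, 4 had enough counts to be tested. None was called by edgeR, DESeq2 or limma-voom, and 1 had an unadjusted edgeR p under 0.05. Col11a2 was the highest of these 4 at 4.70 ± 0.49 and 5.08 ± 0.68 CPM, followed by Col23a1 at 1.87 and 2.66 CPM and Col27a1 at 0.857 and 1.75 CPM.

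General chaperone and stress lists gave no calls. None of 25 tested genes of the general chaperone and unfolded protein list passed by edgeR, DESeq2 or limma-voom, 3 had an unadjusted edgeR p under 0.05, and the median log2 fold change was -0.01. Hspa5, the main chaperone of the endoplasmic reticulum, was at 1330 ± 94.3 and 1319 ± 73.8 CPM (SD, n = 4 each). Hsp90b1 was at 895 and 873 CPM and Pdia3 at 802 and 826 CPM. In the heat shock list 0 of 19 passed by any of the 3 tools and 0 had an unadjusted edgeR p under 0.05, with a median of 0.01 and single values from -0.28 to 0.20. Its most abundant genes were Hsp90ab1 at 1789 and 1780 CPM, Hspa4 at 322 and 341 CPM and Hspa8 at 316 and 349 CPM.

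In the list of hypoxia-induced genes, which holds P4ha1 and Plod1, 1 of 24 tested genes rose and 0 fell, with a median log2 fold change of -0.07. An unadjusted edgeR p under 0.05 was found for 2, and DESeq2 called 2 and limma-voom 1. The gene that rose was Pfkfb3, a regulator of glycolysis, from 63.3 ± 6.64 to 88.02 ± 5.14 CPM (SD, n = 4 each; edgeR adjusted p 0.0452). Its call was lost in 8 of 16 alternatives, with adjusted p up to 0.145 when single libraries were left out. The glycolytic genes Aldoa, Ldha and Eno1 averaged 1781, 1327 and 452 CPM for WT, against 1685, 1188 and 391 CPM for KO. Of the TGF-beta list, a signalling pathway that drives matrix production in stromal cells, 0 of 22 passed by edgeR or limma-voom, and the median was 0.26. In 6 of the 22 every KO library lay above every WT library and in 3 below, beside 5.13% and 4.28% of all tested genes. In that list 12 genes had an unadjusted edgeR p under 0.05, a count from which nothing is read. DESeq2 called 4, beside 4.41% of all tested genes. Tgfb1 averaged 294 and 278 CPM in WT and KO, Skil 281 and 342 CPM, and the receptor gene Tgfbr1 225 and 306 CPM.

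**Figure D3:**
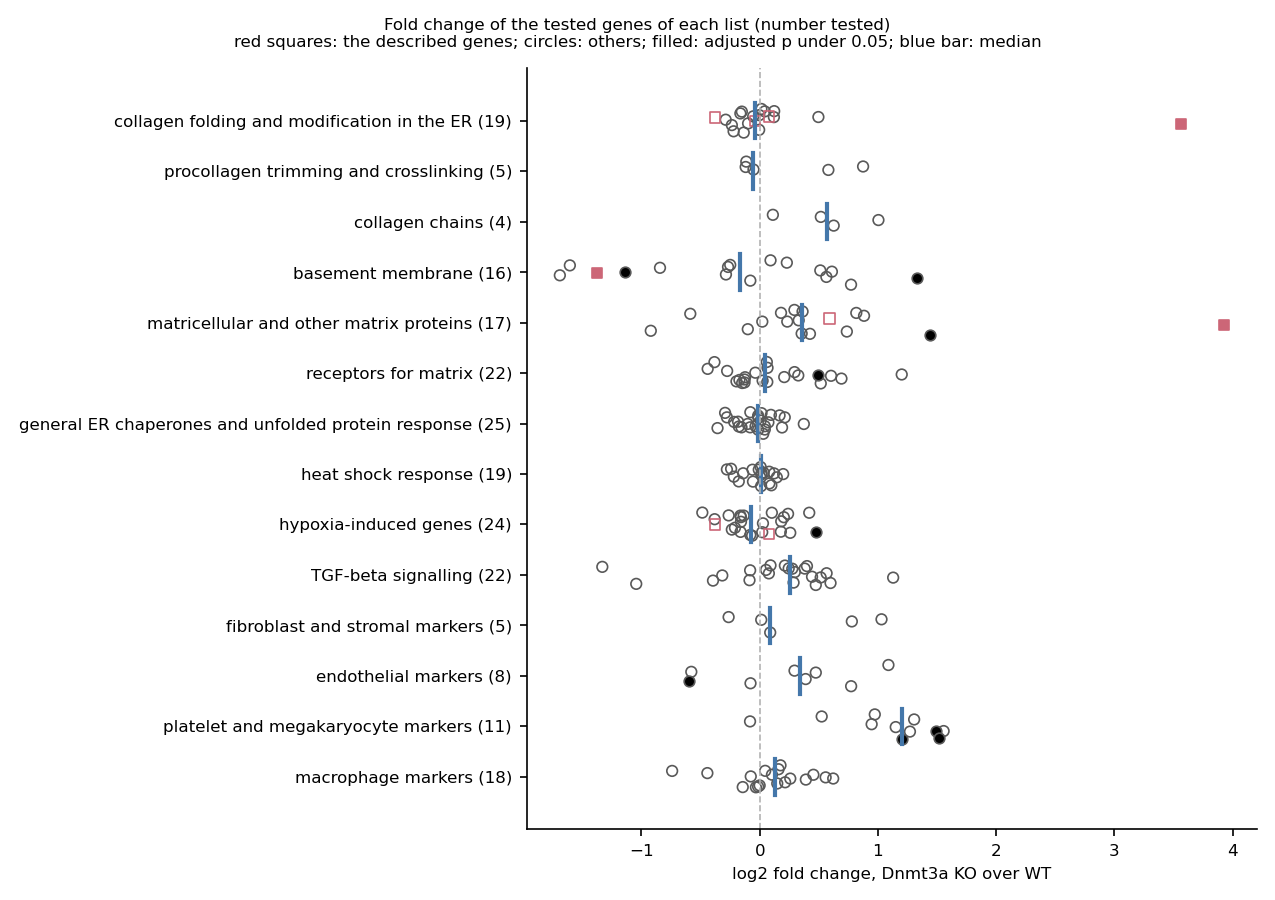
Log2 fold change of Dnmt3a KO over WT for every tested gene of each list, with the number tested in brackets. Red squares are the genes described here, circles other genes, filled symbols genes with an adjusted p under 0.05, and blue bars medians. Serpinh1 at 3.57 and Mxra8 at 3.93 lie far to the right of the other genes of their lists.

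Among basement membrane genes Nid2 was lower in KO. Nid2 stood at 14.1, 11.9, 9.83 and 13.4 CPM for WT replicates 1 to 4, from 221, 187, 165 and 388 counts. For KO replicates 1 to 4 it stood at 3.68, 5.26, 5.44 and 4.50 CPM, from 49, 108, 69 and 79 counts. The lowest WT library lay well above the highest KO library, a separation in this direction shown by 4.28% of tested genes. The mean was 12.3 ± 1.88 CPM in WT against 4.72 ± 0.80 CPM in KO (SD, n = 4 each), 2.60-fold lower. On the log2 scale this is -1.38 ± 0.18 (SE; 95% interval from -1.77 to -0.98).

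The other nidogen gene, Nid1, was near 0 in both genotypes. It had 8 counts over WT, from replicates 3 and 4, and 6 over KO, all from replicate 3. A count of 0 in the remaining libraries allows up to 0.146 to 0.226 CPM, taking 3 counts as the limit. Nid2 thus supplied 99.3% of nidogen counts in WT and 98.0% in KO, as means over 4 libraries each. Nid2 shares 437 of its 5174 exonic bases with 2700060E02Rik (Rtraf) on the other strand. That neighbour averaged 50.2 ± 3.13 CPM against 47.8 ± 4.42 CPM (SD, n = 4 each; edgeR adjusted p 0.832).

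Hspg2, the perlecan gene, held 1, 13, 0 and 10 counts in the WT libraries, against 8, 15, 5 and 5 in the KO libraries. Pooled, this is 0.311 CPM in WT with a Poisson 95% interval from 0.199 to 0.463, and 0.515 CPM in KO with an interval from 0.354 to 0.723. The values overlapped, and a difference was not detectable at this depth. In the edgeR fit with no count filter its log2 fold change was 0.70 ± 0.77 (SE).

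Across the basement membrane list, 16 of 32 genes were tested, 1 rose and 2 fell, with a median log2 fold change of -0.16. By edgeR 8 of the 16 had an unadjusted p under 0.05, and DESeq2 called 6, beside 4.41% of all tested genes. In 1 of the 16 every KO library lay above every WT library and in 5 below, beside 5.13% and 4.28% of all tested genes. Besides Nid2 the gene that fell was Col4a5, which encodes a chain of type IV collagen. Its levels were 11.8, 11, 8.04 and 8.16 CPM for WT, against 4.96, 5.31, 3.94 and 3.42 CPM for KO. The log2 difference was -1.14 ± 0.21 (SE), with an edgeR adjusted p of 0.0174. Its call was lost when WT replicate 2 or any of KO replicates 1, 3 and 4 was left out, with adjusted p up to 0.0700. The lowest log2 fold changes of the list did not pass and are named after their values were seen. They were those of the type IV collagen genes Col4a1 and Col4a2. Col4a1 averaged 6.88 ± 3.15 CPM in WT against 2.15 ± 1.04 CPM in KO (SD, n = 4 each; log2 difference -1.69 ± 0.38, SE; edgeR adjusted p 0.0527). Col4a2 averaged 11.2 ± 7.25 CPM against 3.66 ± 0.49 CPM (log2 difference -1.61 ± 0.38; adjusted p 0.0645), with 21.6 CPM in WT replicate 1. For both genes every KO library lay below every WT library.

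The gene that rose was Lamb2, a laminin beta chain. Its levels were 3.24, 3.31, 2.44 and 2.42 CPM for WT, against 6.92, 6.18, 8.59 and 6.89 CPM for KO. The log2 difference was 1.33 ± 0.20 (SE), with an edgeR adjusted p of 0.00623. The genotypes did not overlap for Lamb2 or Col4a5, and the 2 genes moved in opposite directions. The most abundant genes of the list were Col18a1 (198 and 188 CPM in WT and KO), the laminin gene Lamc1 (188 and 156 CPM) and the proteoglycan gene Agrn (29.3 and 34.3 CPM). Their edgeR adjusted p were 0.888, 0.355 and 0.660.

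**Figure D4:**
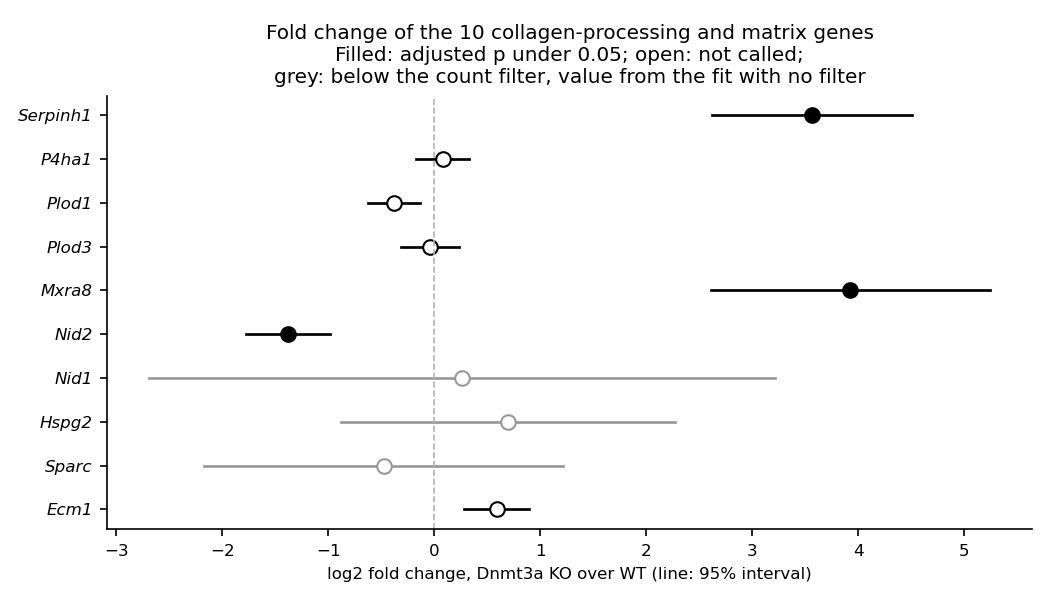
Log2 fold change of Dnmt3a KO over WT with its 95% interval for each of the 10 genes. Filled points passed the adjusted threshold over all genes, open points did not, and grey points lie below the count filter and come from the fit with no filter. The intervals of Nid1, Hspg2 and Sparc are the widest, and those of Serpinh1 and Mxra8 start above 2.

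Ecm1 encodes a secreted matrix glycoprotein. Its levels were 79.4, 55.2, 54.7 and 52.8 CPM for WT replicates 1 to 4, against 90.8, 83.5, 86.8 and 103 CPM for KO replicates 1 to 4. All KO libraries were above all WT libraries, although WT replicate 1 came close to the lowest of them. The log2 fold change was 0.59 ± 0.14 (SE), with a 95% interval from 0.28 to 0.90 before adjustment. Ecm1 did not pass over all genes in the fit reported here. It was called without WT replicate 1, at a log2 fold change of 0.75, where 3.82% of tested genes were called. It was also called with DESeq2 and with no count filter, the latter calling 1.82% of tested genes.

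Sparc, which encodes a secreted collagen-binding glycoprotein abundant in fibroblasts and in platelet granules, was scarce. The WT libraries held 8, 12, 0 and 13 counts, and the KO libraries held 5, 4, 0 and 11. The pooled levels of 0.428 CPM in WT, with a Poisson interval from 0.294 to 0.601, and 0.312 CPM in KO, with an interval from 0.191 to 0.482, overlapped. Its log2 fold change with no count filter was -0.48 ± 0.83 (SE).

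Of 17 tested matricellular and other matrix genes 2 rose and 0 fell, Mxra8 and Mfge8, with a median log2 fold change of 0.35. By edgeR 7 had an unadjusted p under 0.05. DESeq2 called 4, beside 4.41% of all tested genes, and limma-voom 2. In 5 every KO library lay above every WT library and in 0 below, beside 5.13% and 4.28% of all tested genes. Mfge8 encodes a secreted bridge between dying cells and the phagocytes that engulf them. Its levels were 96.1, 63.9, 51.4 and 42.6 CPM for WT, against 168, 198, 157 and 164 CPM for KO, without overlap. The log2 difference was 1.44 ± 0.21 (SE), with an edgeR adjusted p of 0.00614. The most abundant genes of the list were Spp1 (2384 and 2421 CPM), Tgfbi (1870 and 2404 CPM) and Emilin2 (438 and 408 CPM), and their edgeR adjusted p were 0.961, 0.588 and 0.681.

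Of 22 tested receptors for matrix, 1 rose and 0 fell, and the median log2 fold change was 0.04. By edgeR 5 had an unadjusted p under 0.05. DESeq2 called 2, beside 4.41% of all tested genes, and limma-voom 1. Stab1, an endocytic receptor whose ligands include the Sparc protein, averaged 763 ± 22.8 CPM in WT against 1074 ± 110 CPM in KO (SD, n = 4 each; edgeR adjusted p 0.0282). Its call was lost in 6 of 16 alternatives, all of them single libraries left out, with adjusted p up to 0.0885. Cd44, Itga5 and Cd36 averaged 1276, 1176 and 1038 CPM for WT, against 1335, 1026 and 1677 CPM for KO, and none of them passed.

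Levels can be compared between genes only per length, here in CPM per kb of the longest annotated transcript. In WT the order was Plod1 (54.6), P4ha1 (41.5), Plod3 (37.6), Ecm1 (31.9) and Nid2 (2.52 CPM per kb), and then Sparc, Serpinh1, Mxra8, Hspg2 and Nid1, all under 0.19. Neighbours within the first 4 and within the last 5 overlapped in their library ranges, while Nid2 was apart from both sets. In KO, Ecm1 led at 47.9 CPM per kb. Serpinh1 at 1.98 ± 0.80 and Mxra8 at 1.08 ± 0.49 came to stand just above Nid2 at 0.968 ± 0.16 CPM per kb (SD, n = 4 each), with overlapping ranges between neighbours. Among 12229 tested genes with a length, Serpinh1 ranked 12007 in WT and 9658 in KO, and Nid2 ranked 9278 and 10605.

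Markers of other cells that make matrix were examined beside these genes. Of 23 fibroblast and stromal markers, 18 were below the count filter, and these summed to 1.31 to 6.10 CPM in WT libraries and 2.63 to 3.91 CPM in KO libraries. None of these 18 had more than 71 counts over the 8 libraries, the most being in Col1a1 with 35 counts over WT and 36 over KO. Collagen and proteoglycan genes typical of fibroblasts were among the 18, with Col1a2 at 23 and 37 counts, Col3a1 at 12 and 1, Dcn at 7 and 12 and Lum at 0 and 2. Pdgfra had 2 and 5 counts. Pdgfrb, which was tested, had 44 and 74 counts, or 0.567 ± 0.374 CPM in WT against 1.18 ± 0.56 CPM in KO (SD, n = 4 each). Its groups overlapped, and the log2 difference was 1.03 ± 0.56 (SE; edgeR adjusted p 0.492). The 3 most abundant genes of that list, which macrophages may also express, were Gsn (958 and 798 CPM), Kitl (18.3 and 31.6 CPM) and Tagln (2.58 and 2.74 CPM). None of the 5 tested genes passed by edgeR, DESeq2 or limma-voom, and 1 had an unadjusted edgeR p under 0.05.

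The endothelial list, 8 of 18 tested, summed to 143 to 168 CPM in WT and 144 to 160 CPM in KO, with Cldn5 at 0. Its log2 fold changes ran from -0.59 for Vwf to 1.09 for Esam with a median of 0.34, and edgeR called 0 genes higher and 1 lower. By edgeR 4 had an unadjusted p under 0.05, and DESeq2 called 1. In 2 every KO library lay above WT and in 1 below, beside 5.13% and 4.28% of all tested genes. Vwf, the most abundant, fell from 80.6 ± 11.2 to 53.4 ± 4.56 CPM (edgeR adjusted p 0.0292), a call lost in 6 of 16 alternatives on leaving out single libraries with adjusted p up to 0.118. Eng averaged 40.8 and 56.8 CPM and Kdr 12.04 and 15.8 CPM. Of 11 tested platelet and megakaryocyte markers 3 were higher in KO by edgeR and 0 lower, with a median log2 fold change of 1.20. There 9 had an unadjusted edgeR p under 0.05. DESeq2 called 7, beside 4.41% of all tested genes, and 8 lay above WT in every KO library, beside 5.13%. That list summed to 149 to 208 CPM in WT and 203 to 302 CPM in KO. Itga2b rose from 12.1 to 27.7 CPM, Nrgn from 2.20 to 6.44 CPM and Gp1bb from 1.05 to 2.96 CPM, the last losing its call in 8 of 16 alternatives with adjusted p up to 0.164. Ppbp averaged 23.7 and 57.4 CPM, and Pf4, the most abundant, 138 and 130 CPM (edgeR adjusted p 0.112 and 0.874). The part of such cells in the differences of Serpinh1, Mxra8 and Nid2 was not tested.

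The nearest tested genes on either side of the 3 that passed were also read. Next to Serpinh1 on chromosome 7 (99345376 to 99353239 in mm10), Mtap6 at a distance of 8.24 kb averaged 1.47 and 1.62 CPM in WT and KO, and Gdpd5 at 28.2 kb averaged 29.9 and 23.0 CPM. Next to Mxra8 on chromosome 4 (155839680 to 155844088), Aurkaip1 at 6.58 kb averaged 68.9 and 61.7 CPM and Dvl1 at 3.30 kb averaged 89.0 and 69.5 CPM. Nid2 lies on chromosome 14 (19751265 to 19811787). On its higher-coordinate side the overlapping 2700060E02Rik was taken, and tested genes beyond that one were not read. On the lower-coordinate side the nearest tested gene was Ube2e2, 857 kb away, with 15.5 and 14.01 CPM. The edgeR adjusted p of these 5 genes lay between 0.465 and 0.856. The other genes lie on chromosomes 13 (Nid1), 4 (Hspg2 and Plod1), 5 (Plod3), 10 (P4ha1), 11 (Sparc) and 3 (Ecm1).

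Likeness of pattern was taken as the Pearson correlation of log2 CPM over the 8 libraries, which share the genotype difference, so the values are only a description. Most like Serpinh1 were the early embryonic gene Dppa3 (0.984), the creatine transporter gene Slc6a8 (0.981) and the prostaglandin synthase gene Ptgs2 (0.974). Dppa3 averaged 0.865 ± 0.34 CPM in WT against 4.95 ± 1.66 CPM in KO (SD, n = 4 each; edgeR adjusted p 0.00466). Most like Mxra8 were the laminin gene Lamb2 (0.979), Tnks1bp1 (0.973) and Dtx4 (0.969). Most like Nid2 were Dnmt3a itself (0.965), Gstt3 (0.964) and Wwc2 (0.964).

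Serpinh1, Mxra8 and Nid2 were called in all 16 alternatives of scaling, filter, test, replicate block and single libraries left out. Their log2 fold changes ran from 3.31 to 3.89, from 3.45 to 4.72 and from -1.47 to -1.28. These refits reuse the same libraries, and the genes were chosen with this comparison known, so repeated calls are no separate evidence. The highest value of Mxra8 was that without WT replicate 1, which held 6 of its 11 WT counts. In the authors' deposited table, whose sign is reversed here so that positive means higher in KO, the log2 fold changes were 3.59 for Serpinh1, 3.96 for Mxra8, -1.38 for Nid2, 0.59 for Ecm1 and -0.38 for Plod1. By the authors' deposited table Serpinh1, Mxra8, Nid2 and Ecm1, 4 of the 10 genes, had an adjusted p under 0.05. Of the 16106 genes with an adjusted p there, 507 did, or 3.15%. That table compares the same genotypes of this series, so it is no separate evidence. The genes were chosen with the comparison known, and nothing is read from this share.

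**Figure D5:**
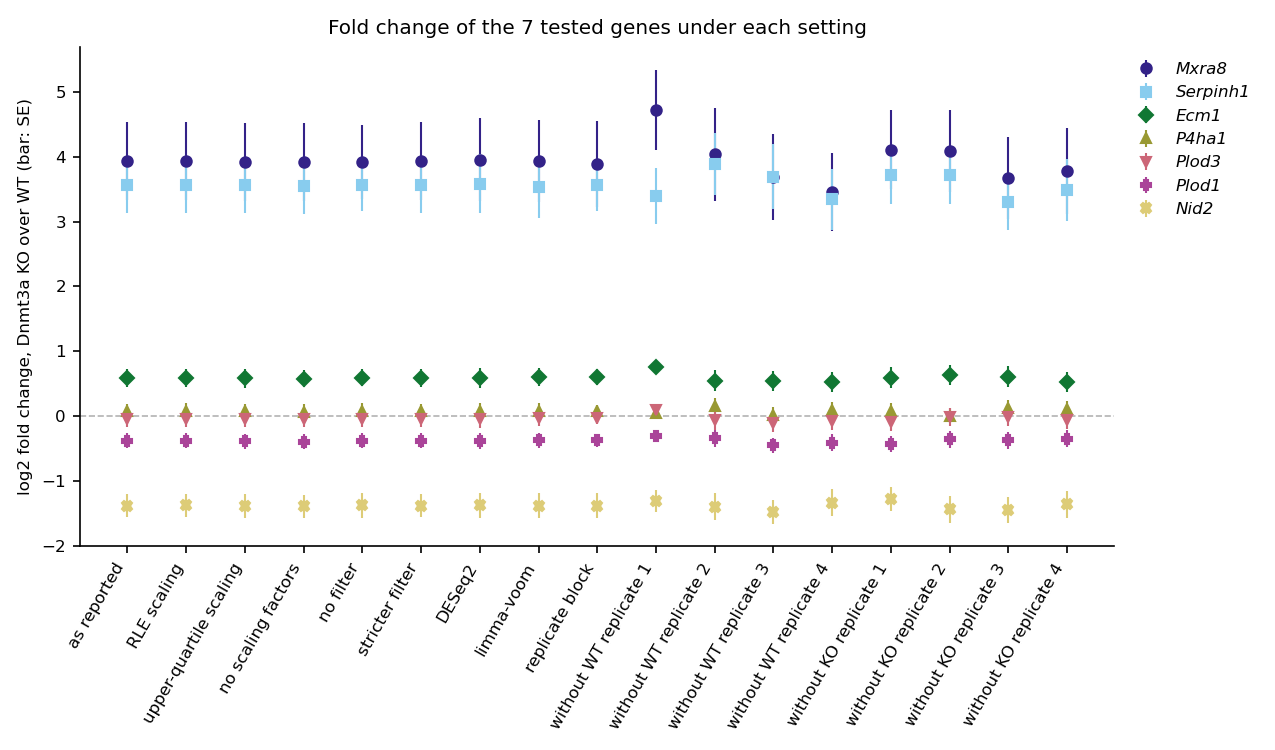
Log2 fold change of Dnmt3a KO over WT, with its SE, for the 7 tested genes as reported and under the 16 alternatives on the horizontal axis. Serpinh1 stays between 3.31 and 3.89 and Nid2 between -1.47 and -1.28, while Plod3 crosses 0 without WT replicate 1.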

How the data were processed

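Raw read counts by gene symbol, deposited by the authors, were analysed. Reads were trimmed with Trimmomatic 0.39, aligned with STAR 2.7.0a to mm10 and counted with featureCounts, per the submitters' processing notes. Libraries were made from 10 ng of RNA with a poly(A) kit that does not mark strand, per the labels' protocols. The annotation behind the counts is not given in the sources used here. A second deposited table, of the authors' comparison, holds a mean normalised signal, a log2 fold change, a test score and p-values for each gene, under DESeq2-style column names. Positive values there are higher in WT.

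Genes kept by filterByExpr (minimum count 10) were scaled by TMM and tested for genotype with edgeR 4.0.16 in R 4.3.3, with Benjamini-Hochberg adjustment at 0.05. Standard errors are the absolute log2 fold change divided by the root of the F statistic. The alternatives tried were scaling by RLE, by upper quartile or not at all, no filter, at least 1 CPM in 4 libraries, DESeq2 1.42.0, voom in limma 3.58.1, a replicate block, each library left out and a log2 fold change of at least 1. Positions and transcript lengths are from GENCODE for GRCm38. Of 317 list symbols 308 matched directly and 9 by RefSeq synonym. Over all 12507 tested genes DESeq2 called 4.41% and limma-voom called 189 genes, for comparison with the list counts. The share of all tested genes with an unadjusted p under 0.05 is not given here, so nothing is read from the list counts of that kind. The 10 genes and the lists were chosen with earlier results of these data known. Named by rule are the 10, Dnmt3a, each list's called genes and its 3 most abundant, nearest tested neighbours, and the 3 most alike genes. Csf1r, Plod2, Col4a1, Col4a2, Cldn5, Pdgfrb and the stromal markers below the filter were named after their values were seen, and overlapping genes from the annotation. Counts limit precision for low genes, and the Poisson intervals of CPM cover counting error only. The intervals of log2 fold changes come from the edgeR fit and also take in library-to-library spread.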

Additional observations from a re-analysis of the deposited data

Results flagged for a closer look

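The 72 genes named by rule were checked for a library far from the other 3 of its genotype, by a gap test that flags about 1 group in 20 by chance. Of 144 groups 16 were flagged, and 10 of these were WT replicate 1.

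Among the described genes, Ecm1 stood at 79.4 CPM in WT replicate 1 against 52.8 to 55.2 CPM in the other WT libraries. Nid1 stood at 0.473 CPM in KO replicate 3, from 6 counts, against 0 in the other KO libraries. With the others at 0, any count above 0 is flagged, so the stated chance rate does not apply to Nid1.

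The other flags in WT replicate 1 were high values of Aurkaip1 (94.8 CPM), Glt25d1 (230 CPM), Gsn (1331 CPM), Hsp90ab1 (2077 CPM), Itga5 (1372 CPM), Tnks1bp1 (12.8 CPM) and Vwf (97.3 CPM), and low values of Cd36 (585 CPM) and Tgfbr1 (130 CPM). In other WT libraries, 2700060E02Rik was high in replicate 4 (54.8 CPM), Eng low in replicate 3 (32.8 CPM) and Pf4 low in replicate 2 (113 CPM). In KO libraries, Tgfbr1 was high in replicate 2 (368 CPM) and Wwc2 low in replicate 1 (20 CPM).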

How the results depend on the processing

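The count of called genes, 201 as reported, was 399 with no filter, 551 with DESeq2, 118 when a 1-unit log2 difference was also required, and 103 to 484 when single libraries were left out, highest without WT replicate 1 and lowest without WT replicate 2. Of the 10 genes 3 were called as reported, 5 with DESeq2, which added Ecm1 and Plod1, and 3 to 4 without single libraries. Same-numbered libraries of the 2 genotypes deviated together in only some pairs, with correlations of 0.253, 0.284, 0.0658 and -0.0191. WT replicates 1 and 2 correlated most with the KO library of their own number, and WT replicates 3 and 4 did not. Whether the numbers mark a shared day or animal is not given in the labels, and these correlations cannot settle it. With the replicate block 260 genes were called, 178 of them shared with the 201, and 3 of the 10 genes. Over 69 tested named genes, the direction turned in 14, all on leaving out single libraries. Their log2 fold changes then ran from -0.15 to 0.0757 for Aldoa, -0.24 to 0.0383 for Aurkaip1, -0.0887 to 0.16 for Cd44, -0.29 to 0.020 for Col18a1, -0.30 to 0.018 for Eno1, -0.043 to 0.0755 for Hsp90ab1, -0.12 to 0.0305 for Hsp90b1, -0.0532 to 0.0307 for Hspa5, -0.0354 to 0.10 for Pdia3, -0.26 to 0.0016 for Pf4, -0.11 to 0.0919 for Plod3, -0.0684 to 0.12 for Spp1, -0.034 to 0.24 for Tagln and -0.17 to 0.0494 for Tgm2. None of these 14 was called. Where leaving out a library ended a call, the cause was not tested. Depth limits Nid1, Hspg2 and Sparc, and the size of the change in Mxra8.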
